A study of Mus musculus with 20 samples.

Results

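The data described here are the 5 medium control libraries of a series of 20 messenger RNA libraries from dissociated mouse hippocampal cultures. They were chosen by their treatment label alone, and no measured value entered that choice. Per the labels, hippocampi of C57BL6 embryos at embryonic day 18 were dissected, the tissue of 4 embryos was pooled and dissociated, and the cultures were kept until day 10 in vitro in Neurobasal with B27 and a reduced amount of GlutaMAX. From day 3 to day 6 the cultures received 4 µM cytosine arabinoside, which blocks DNA synthesis and so removes proliferating cells. The labels name no genetic change, and the control cultures received no glutamate, zinc or chelator. They were not undisturbed: the growth medium was replaced by a buffered salt solution at room temperature, a mock pulse of the same solution was given for 2 min, and the cells were lysed 90 min after return to their own medium at 37 °C. The other 15 libraries, which were given glutamate, are not compared here. The labels call the 5 libraries biological replicates. The labels do not say whether the libraries came from separate pools of embryos, so the spread between them may be partly technical. All levels below are TPM (a count divided by gene length and scaled to the same total in every library, so that genes of different length can be compared), given as mean ± SD over the 5 libraries (n = 5), and lists of 5 values run from replicate 1 to replicate 5.

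A dissociated hippocampal culture holds glutamatergic pyramidal and granule neurons, which excite their targets through AMPA, NMDA and kainate receptors, and GABAergic interneurons, which inhibit through GABA-A and GABA-B receptors. Astrocytes, which take up transmitter, oligodendrocyte precursors, microglia and vascular cells can be carried over from the tissue. Serum-free B27 medium and cytosine arabinoside are used to favour neurons over dividing glia. Neurons at this age are extending neurites and forming synapses, and several receptor families are known to change subunits during that period. Early genes are genes that neurons transcribe within minutes of synaptic activity. Their level here describes cultures after the mock pulse and recovery, not cultures before any handling.

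Library totals ran from 36106575 to 39765787 counts over 24419 genes. In all, 12944 genes had a mean of at least 1 TPM, 9276 at least 10, 2384 at least 100 and 78 at least 1000, while 5476 genes had no count in any control library. The 12944 genes had a median of 28.0 TPM, and 953 genes made up 50% of all TPM. A count of 3, taken here as the limit that no count allows, was worth 0.146 TPM or less for Tubb3, a gene of 1723 bases, and the limit scales inversely with gene length. It covers counting error only.

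The most abundant transcripts encoded the neuronal cytoskeleton and its regulators. Tuba1a, the main alpha-tubulin of postmitotic neurons, led with 8276, 8673, 8758, 8896 and 8577 TPM (8636 ± 233), and replicate 1 was its lowest library and replicate 4 its highest. It was followed by the translation elongation factor Eef1a1 (4878 ± 68.3), the actin-sequestering peptide gene Tmsb4x (4385 ± 152), beta-actin Actb (4181 ± 74.4) and the imprinted gene Nnat (3860.3 ± 57.1), which encodes a small membrane proteolipid. Of the 20 most abundant genes, 4 encoded tubulins (Tuba1a, Tubb2b, Tubb3 and Tubb2a) and 2 the microtubule-destabilising stathmins (Stmn2 and Stmn1). Calm2 (2380.2 ± 152) and Calm3 (2271 ± 38.2) encode the calcium sensor calmodulin. Actb and Actg1 are the cytoplasmic actins, and Cfl1 encodes the actin-severing protein cofilin. Further members were Gap43, a protein of growing axons (2379.99 ± 35.6), the neuronal ubiquitin hydrolase Uchl1 (2302 ± 22.4), the chaperone Hsp90ab1 (3062 ± 30.9) and the selenoprotein gene Sepw1 (2269.7 ± 48.0). Gene 20, Tubb2a, had 2208 ± 40.2 and gene 21, the sodium pump subunit Atp1b1, 2202 ± 63.2, so the last place was not separated from the next beyond the spread between libraries. Together the 20 genes held 6.44% ± 0.0837 of all TPM, and the 19 genes whose symbols mark them as tubulins held 2.15% ± 0.0383. Tubulins, actins, calmodulins and Eef1a1 have close copies in the genome, and the treatment of reads that match several copies is unknown here, so the split within these families is uncertain.

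**Figure D1:**
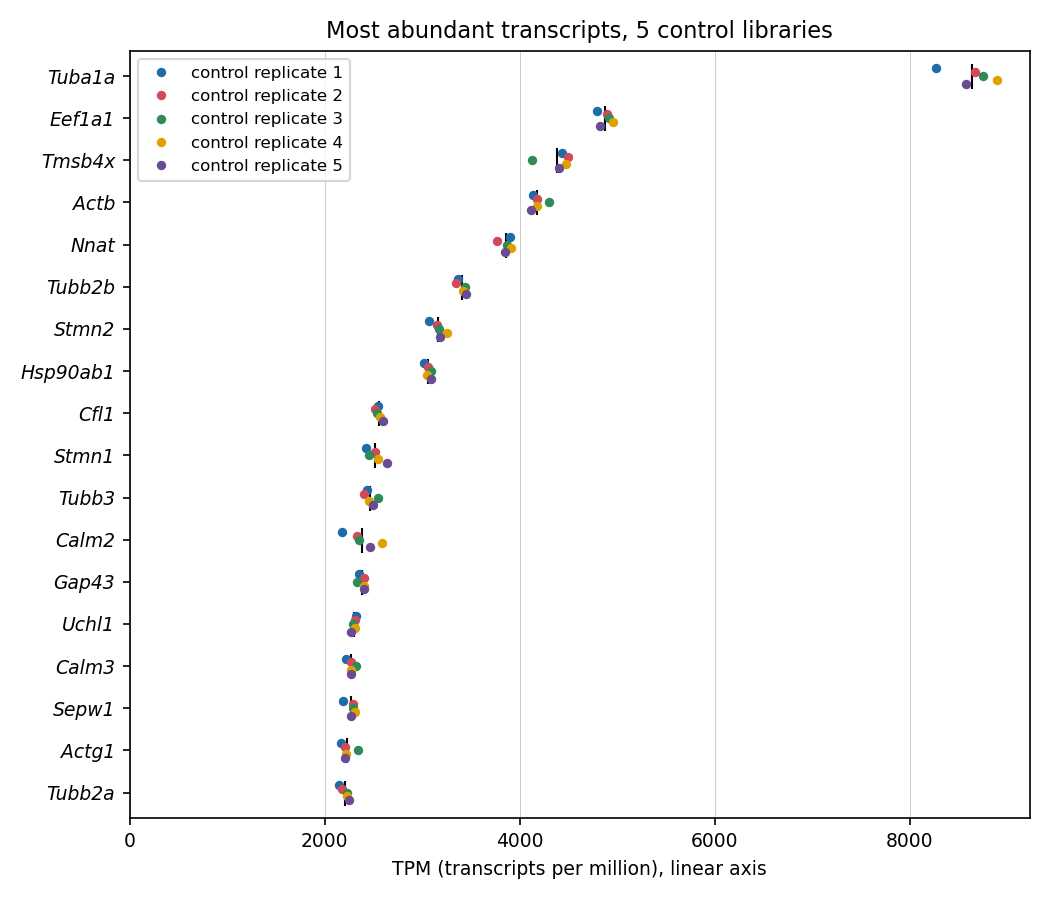
TPM on a linear axis from 0 for the most abundant genes named in the text, ordered by mean over the control cultures; each coloured point is 1 of the 5 libraries and the black bar is their mean. Tuba1a stands alone at 8636, and the genes from Cfl1 down lie close together between about 2208 and 2555.

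Neuronal transcripts dominated the marker lists. All 12 pan-neuronal markers were above 50 TPM, and their median was 523 ± 15.7 TPM. Tubb3, a beta-tubulin made by neurons (mm10 chromosome 8, 123411564 to 123422010, plus strand), had 2433, 2402, 2542, 2459 and 2496 TPM (2466 ± 54.7), a spread of 2.22% around its mean. Stmn2 had 3168 ± 66.4, the microtubule-associated protein genes Mapt 1265 ± 18.0 and Map2 746 ± 15.7, and Snap25, a component of the release machinery, 986 ± 50.0. The immaturity marker Dcx, which encodes doublecortin, was still at 264 ± 6.09, above the mature nuclear marker Rbfox3 (NeuN) at 66.0 ± 4.54. Lowest in the list was the neurofilament gene Nefm at 54.3 ± 2.86. In bulk RNA, fewer cells of a type and less RNA per cell cannot be told apart, so none of these levels is a share of cells.

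Markers of glutamatergic neurons were all present. Neurod6, a transcription factor of pyramidal neurons, had 533 ± 26.8 TPM. Slc17a7, which encodes the vesicular glutamate transporter VGLUT1 (chromosome 7, 45163921 to 45176139, plus strand), had 444, 433, 480.1, 463 and 502 TPM (464 ± 27.4), while Slc17a6, which encodes VGLUT2, had 30.2, 29.0, 27.1, 27.5 and 27.2 (28.2 ± 1.34). Slc17a7 therefore made up 94.3% ± 0.547 of the summed TPM of both genes, and 93.6% to 94.9% in single libraries. The third transporter gene, Slc17a8, was at 2.79 ± 0.387. Among the transcription factors, Neurod2 had 95.5 ± 5.82 and Tbr1 73.1 ± 3.36. The synaptic kinase subunit Camk2a had 349, 372, 439.6, 415 and 398 TPM (395 ± 35.4) with its lowest value in replicate 1, and its partner Camk2b had 833 ± 30.1.

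GABAergic transcripts lay above or below glutamatergic ones depending on the genes compared. Gad1, which encodes the GABA-synthesising enzyme GAD67 (chromosome 2, 70562164 to 70602012, plus strand), had 619, 627, 573, 573 and 589 TPM (596 ± 25.4), more than Slc17a7 in all 5 libraries by 1.29-fold ± 0.123. Gad2, the second GABA-synthesising enzyme gene, had 138 ± 4.79, and the vesicular GABA transporter gene Slc32a1 had 114 ± 5.54. Between the vesicular transporters the order was reversed, with Slc17a7 above Slc32a1 in all 5 libraries, by 4.08-fold between their means. The median was 43.2 ± 2.85 TPM over the 8 GABAergic markers and 101 ± 2.45 over the 8 glutamatergic ones. Gad1 and Gad2 made up 59.9% ± 2.07 of the summed TPM of Gad1, Gad2, Slc17a6 and Slc17a7, from 57.9% to 62.5%. This compares transcripts, not numbers of cells. The interneuron transcription factor Lhx6, made by cells of the medial ganglionic eminence, had 60.0 ± 4.60, and Dlx1, Dlx5, Dlx6 and Dlx2 had 26.4 ± 1.99, 11.9 ± 1.62, 11.6 ± 0.168 and 9.12 ± 0.318. Exons of Dlx1 overlap those of the antisense gene Dlx1as, so its reads are uncertain, and 33 of the 389 genes considered here share an exon with another counted gene.

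Somatostatin was the most abundant interneuron peptide by a wide margin. Sst had 1167, 1132, 1000.03, 999 and 1101 TPM (1079.8 ± 77.0), rank 68 of all genes, and its gene lies on the minus strand of chromosome 16 at 23889581 to 23890844. Npy, which encodes neuropeptide Y, had 265, 237, 223, 206 and 248 (236 ± 22.7), and Sst exceeded it 4.59-fold ± 0.211. Both peptides were highest in replicate 1 and lowest in replicate 4. Calb2, which encodes calretinin, had 239 ± 7.10 and its range overlapped that of Npy. Cholecystokinin (Cck) had 112 ± 14.4 and neuronal nitric oxide synthase (Nos1) 37.2 ± 2.13. At the other end, Pvalb, the parvalbumin gene of late-maturing basket cells, had 1.86, 1.18, 1.77, 1.35 and 0.847 TPM (1.40 ± 0.421, 80 counts over all 5 libraries), and Vip had 1.98, 1.20, 3.20, 4.84 and 4.81 (3.21 ± 1.64). Vip rested on 311 counts in all, and replicate 2 was its lowest library.

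The Sst promoter is a textbook site of the cAMP response element, the palindrome TGACGTCA bound by CREB, and is printed because Sst led the peptides. The RefSeq sequence (GRCm38.p6, the same assembly as mm10) of the 250 bases before the Sst start, chr16:23890845-23891094 on the minus strand, is given 5′ to 3′ with the element in capitals:
Sst: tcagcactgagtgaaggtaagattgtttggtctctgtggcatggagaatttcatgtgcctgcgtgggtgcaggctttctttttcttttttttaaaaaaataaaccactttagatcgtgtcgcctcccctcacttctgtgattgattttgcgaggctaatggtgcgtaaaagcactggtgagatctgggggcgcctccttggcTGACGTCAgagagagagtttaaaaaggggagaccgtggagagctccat
The element lies at bases 48 to 41 before the start. Over the same window it was found in 392 of 17224 genes that have both a RefSeq promoter and a TPM value (2.28%), and in 1 of the 7 interneuron markers with a promoter. A gene with several RefSeq promoters was counted if any of them held the motif, here and for the early genes below. TGACGTCA reads the same on both strands and contains the shorter motif TGACG, which was found on either strand in 23.1% of the genes. A match describes letters in this window and no measured binding.

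Marker genes of hippocampal fields were all detected at modest levels. Wfs1 and Pou3f1, used as CA1 markers, had 85.6 ± 3.15 and 39.0 ± 2.42 TPM, Grik4, a kainate receptor subunit gene enriched in CA3, 32.4 ± 1.41, and Zbtb20, a transcription factor of hippocampal identity, 32.3 ± 4.59. Prox1, the transcription factor of dentate granule cells, was lower at 6.93, 6.44, 8.34, 7.87 and 7.75 TPM (7.46 ± 0.764). Fibcd1, also used as a CA1 marker, was the lowest of the list at 5.02 ± 0.451, so no order of CA1 against dentate is drawn. Bcl11b (36.7 ± 1.59) and Meis2 (57.3 ± 1.70) are shared with other forebrain neurons, so this list does not separate hippocampus from neighbouring cortex. Of the Cajal-Retzius markers, Reln, which encodes the secreted protein reelin, was high at 253, 236, 211, 196 and 214 TPM (222 ± 22.3), but Trp73 (0.933 ± 0.176), Lhx1 (0.407 ± 0.236) and Lhx5 (0.281 ± 0.0962) were all under 1 TPM. Reln and Calb2 are also transcribed by interneurons, and the source of their RNA was not tested.

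The astrocyte markers had a median well below that of the pan-neuronal ones, although Slc1a2 and Glul lay above Rbfox3 and Nefm. Of 12 markers 11 were at 1 TPM or more, and the median over all 12 was 6.34 ± 0.173 TPM. Gfap, the astrocyte intermediate filament gene (chromosome 11, 102887336 to 102897200, minus strand), had 29.5, 31.9, 41.3, 34.4 and 33.2 TPM (34.0 ± 4.43), and Tubb3 exceeded it 73.2-fold ± 7.63, or 29.6-fold ± 3.09 per coding length (the longest annotated coding sequence in place of the deposited gene length). Slc1a2, the glutamate transporter GLT-1, had 161, 160.2, 176, 163 and 162 (164 ± 6.502), and Slc1a3, the transporter GLAST, 59.6, 68.0, 83.2, 72.0 and 64.8 (69.5 ± 8.91). Hippocampal neurons are also known to transcribe Slc1a2. Glutamine synthetase (Glul) had 95.1 ± 5.05 and Aldoc 40.8 ± 3.34. The more restricted markers were low, with Aldh1l1 at 8.07 ± 0.410, the gap junction gene Gja1 at 4.20 ± 0.153, the water channel gene Aqp4 at 3.36, 2.98, 4.55, 4.04 and 3.48 (3.68 ± 0.617) and S100b at 1.44 ± 0.273. Gjb6, a connexin of mature astrocytes, was at 0.0706 ± 0.0334. Replicate 3 was the highest library for 9 of the 11 astrocyte markers at 1 TPM or more, where it was the highest for 17.9% of the 12944 genes at that level. It was also the highest for 7 of 12 pan-neuronal markers and 11 of 19 scaffold and release genes, so this was not particular to astrocyte markers. For GABAergic neuron markers the count was 1 of 8, and for interneuron subclass markers 0 of 10. These counts were set side by side after the values were seen.

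Transcripts of the oligodendrocyte lineage were scarce, although 4 of the 12 markers stood above the rest. Olig1, a transcription factor gene, had 6.70, 7.98, 10.2, 9.68 and 7.58 TPM (8.42 ± 1.46), but Olig2 had 0.634 ± 0.176, the precursor markers Cspg4 and Pdgfra 0.414 ± 0.0565 and 0.308 ± 0.0782, and Sox10, which defines the lineage, 2 counts in all 5 libraries together. Mag, Mog, Mobp and Gpr17 were each below 0.04 TPM. Mbp (6.51 ± 0.889) and Cnp (9.79 ± 0.561) were higher, and the Mbp gene also gives Golli transcripts in neurons. The list median was 0.361 ± 0.0661 TPM, with 8 of 12 markers under 1 TPM. Olig1 is also known from other neural progenitors, and which cells carried it was not tested.

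Cell division and the remaining cell types left little RNA. Mki67, a marker of cycling cells, had 0.476, 0.311, 0.553, 0.524 and 0.501 TPM (0.473 ± 0.0950), Cdk1 0.329 ± 0.209 and Top2a 2.04 ± 0.325, whereas the progenitor factor Sox2, which astrocytes also make, had 13.5 ± 0.463 and the intermediate filament Vim 221 ± 18.2. Microglial markers summed to 7.11 ± 1.88 TPM over 10 genes, from 4.84 to 9.31, with Csf1r at 1.97 ± 0.183, and Cx3cr1, P2ry12 and Tmem119 each under 0.1. Of the vascular markers only Rgs5 (10.0 ± 1.41), Kdr (1.52 ± 0.3503) and Acta2 (1.04 ± 0.179) were at 1 TPM or more, and Rgs5 is not restricted to pericytes. Collagen genes of fibroblasts (Col1a1, Col1a2 and Col3a1) were each under 0.4 TPM. Ttr, the choroid plexus transcript for transthyretin, had 5.30, 4.81, 18.1, 6.71 and 5.33 TPM, with replicate 3 above all others. Of the other 4 genes of the list, Aqp1 (0.305, 0.332, 0.525, 0.294 and 0.277) and Clic6 (0.0899, 0.102, 0.163, 0 and 0.0409) were also highest in replicate 3, while Kl (0.0821, 0.0746, 0.0745, 0.0317 and 0.135) and the ciliated cell factor Foxj1 (7.14, 7.11, 6.45, 7.81 and 8.13) were highest in replicate 5. The source of the Ttr RNA was not tested. The red-cell gene Alas2 had 1 count over the 5 libraries. The globin genes were listed at 0, but the deposited annotation gives Hba-a1 and Hba-a2 overlapping exons, as it does Hbb-bs and Hbb-bt with further globin genes, so no limit is drawn from those 0 values. Xist had 22.9 ± 1.03 TPM and the Y-linked genes Ddx3y and Eif2s3y 40.4 ± 0.996 and 51.3 ± 1.03, so RNA of both sexes was present in each library. The levels of these genes varied by less than 5% of their means. Of the other Y-linked genes listed, Kdm5d varied by 2.50% and Uty by 8.53%, where counting alone would give 4.17% and 4.35%.

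**Figure D2:**
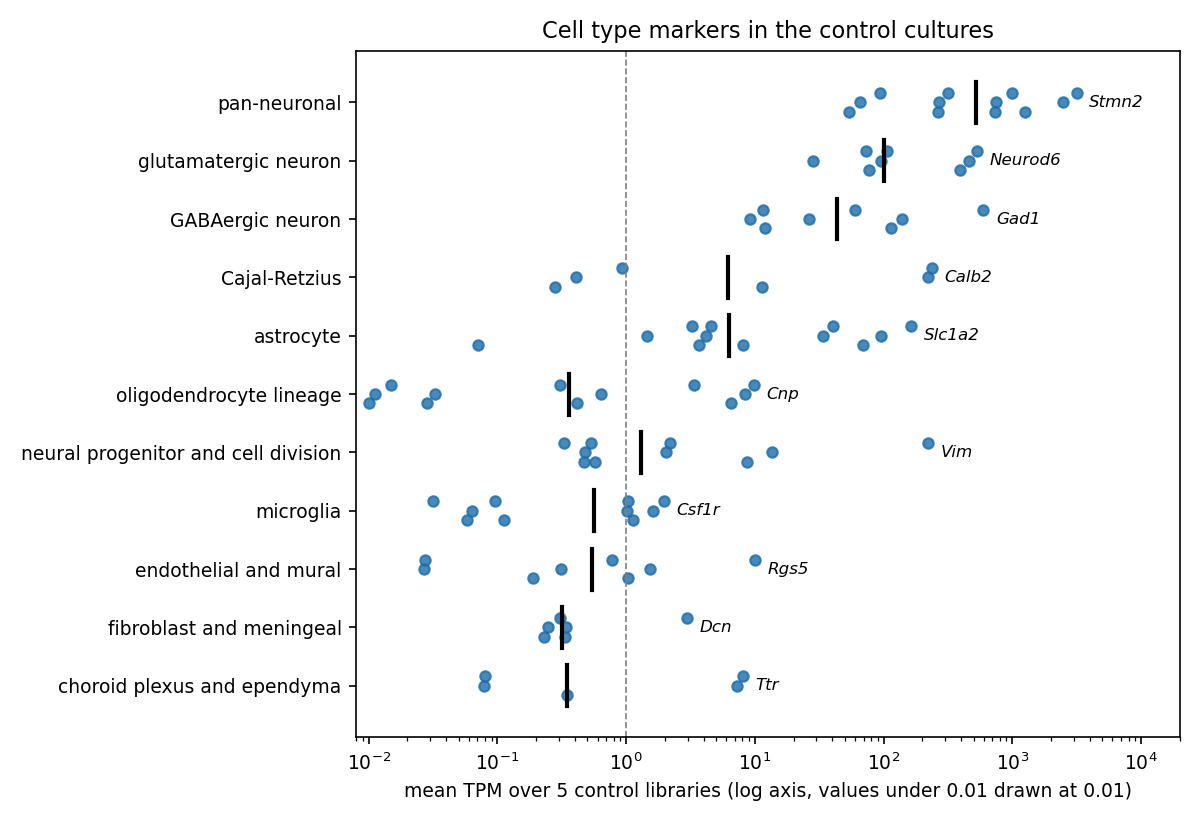
Mean TPM over the 5 control libraries on a log axis for each marker gene of 11 cell type lists; points are genes, the black bar is the median of the gene means in a list, values under 0.01 are drawn at 0.01, the dashed line is 1 TPM and the name is that of the highest gene. All 12 pan-neuronal markers lie above 50 TPM, while 8 of 12 oligodendrocyte lineage markers and 5 of 10 microglia markers lie under 1 TPM.

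Among the genes of NMDA receptors, calcium-permeable glutamate receptors with an obligatory GluN1 subunit, that of GluN1 had the highest transcript level. Grin1, which encodes GluN1, had 423, 421, 434, 398 and 402 TPM (416 ± 15.1). Grin2b, the GluN2B subunit typical of young neurons (chromosome 6, 135729805 to 136173511, minus strand), had 58.3, 49.3, 56.3, 44.9 and 40.5 (49.9 ± 7.50), from 40.5 in replicate 5 to 58.3 in replicate 1. Grin2a, the GluN2A subunit that rises with maturation (chromosome 16, 9577710 to 9992533, minus strand), had 13.8, 12.1, 13.4, 11.1 and 11.7 (12.4 ± 1.16). Grin2b thus exceeded Grin2a in all 5 libraries, by 4.01-fold ± 0.308, or 6.58-fold ± 0.505 per coding length. It made up 69.6% ± 1.63 of the 4 GluN2 genes, with Grin2a at 17.4% ± 1.05. Grin2d, a GluN2 subunit of interneurons, had 9.005 ± 1.05, so that Grin2a exceeded it 1.38-fold ± 0.0703. Grin3a, a modulatory subunit of young neurons, was above Grin2a at 26.8 ± 1.54, and Grin2c was at 0.209 ± 0.0996. Grin3b had 0.0665 ± 0.0550 TPM on 14 counts, and its exons overlap those of Tmem259. Grin1 exceeded the sum of all other NMDA receptor genes 4.25-fold ± 0.316.

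Among the genes of AMPA receptors, which carry fast excitation, Gria1 and Gria2 had the highest transcript levels. Gria1 (GluA1) had 317, 307, 326, 307 and 314 TPM (314 ± 7.88) and Gria2 (GluA2), the subunit that makes receptors impermeable to calcium and zinc, 236, 241, 244, 254 and 259 (247 ± 9.70). Gria4 had 42.6 ± 0.732 and Gria3 32.0 ± 2.39, and in no library did the level of any of these genes overlap that of its neighbour. Gria1 was above Gria2 in 5 of 5 libraries on the TPM scale, by 1.28-fold ± 0.0654. This order depends on the gene length used: per coding length, an alternative chosen after seeing the data, the ratio was 0.958 ± 0.0491 and Gria1 was higher in 2 of 5 libraries. Gria2 made up 38.8% ± 1.06 of the family on the TPM scale and 45.9% per coding length. Of 12 auxiliary genes all were above 1 TPM. On the TPM scale the cornichon Cnih2, which slows AMPA receptor deactivation, led with 743 ± 12.04, followed by the TARP genes Cacng7 (249 ± 12.8) and Cacng4 (141 ± 7.56). Per coding length Cnih2 stood 8.49-fold above Cacng7 instead of 2.99-fold. Before length scaling, Cnih3 had a mean of 4715 counts, Cacng7 2618 and Cacng4 1758. The order of the genes below Cnih2 therefore depends on the gene length used. Cnih3 had 136 ± 9.34, the hippocampal TARP Cacng8 73.6, 68.6, 79.7, 73.9 and 81.3 (75.4 ± 5.12) and stargazin (Cacng2) 36.4 ± 0.448. Gsg1l, which dampens AMPA receptor currents, was lowest at 5.57 ± 0.378.

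Grik5 led the kainate receptor genes and Grm5 the metabotropic ones. Grik5, a kainate subunit that functions together with the Grik1 to Grik3 products, had 192, 187, 198, 188 and 196 TPM (192 ± 4.61) and made up 58.9% ± 0.766 of the 5 kainate subunit genes. Grik2, a pore-forming partner, had 30.8 ± 2.04, Grik1 50.0 ± 4.17 and Grik3 21.1 ± 2.30, and the auxiliary genes Neto2 and Neto1 had 57.5 ± 3.27 and 34.4 ± 0.557. Among metabotropic receptors the Gq-coupled Grm5 had 101, 102, 111, 115 and 112 TPM (108 ± 6.42), 2.38-fold ± 0.307 above the Gi-coupled Grm2 (45.9 ± 4.45), or 4.43-fold ± 0.570 per coding length. Presynaptic Grm7 had 36.4 ± 2.27, Grm3 14.8 ± 1.17, Grm4 10.8 ± 0.565 and Grm8 4.78 ± 0.915. Grm6, a retinal receptor, was at 0.00352 ± 0.00788 TPM.

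Among the alpha subunit genes of GABA-A receptors, the chloride channels of fast inhibition, Gabra2 and Gabra5 had the highest transcript levels. Gabra2 had 467, 470.03, 497, 527 and 509.5 TPM (494 ± 25.9) and Gabra5, an extrasynaptic alpha subunit of the hippocampus, 383, 374, 362, 381 and 403 (381 ± 14.8). As shares of the 6 alpha genes these were 46.5% ± 1.20 and 35.9% ± 1.15. Gabra2 was the higher in all 5 libraries, by 1.2985-fold ± 0.0750, or 1.19-fold ± 0.0689 per coding length. Gabra4 had 68.0 ± 3.85 and Gabra3 49.9 ± 3.61. Among beta genes Gabrb2 had 129 ± 6.07 and Gabrb1 81.5 ± 5.49, a ratio of 1.59 ± 0.157 on the TPM scale and 5.99 ± 0.589 per coding length. Gabrd, an extrasynaptic subunit of granule cells and some interneurons, had 19.4 ± 0.847, Gabrg3 15.4 ± 2.14 and Gabrg1 8.89 ± 0.416. Gabra6 of the cerebellum and Gabrp were at 0.0249 ± 0.0258 TPM and at 0 counts, the latter allowing up to 0.0769 TPM. Of 19 genes 13 were at 1 TPM or more.

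Slow inhibition and chloride handling completed the inhibitory set. The GABA-B subunits, which act as obligate heterodimers, had 518 ± 8.33 TPM for Gabbr1 and 192 ± 13.9 for Gabbr2. Glra2, the glycine receptor alpha subunit of immature neurons, had 89.1 ± 5.55 and Glrb 134 ± 6.10, whereas Glra1, the adult spinal subunit, had 0.0574 ± 0.0410. Slc12a5, the chloride exporter KCC2 whose rise makes GABA inhibitory, had 143, 145, 154, 139.9 and 143 TPM (145 ± 5.20) and Slc12a2, the importer NKCC1, 22.5, 21.8, 22.1, 21.2 and 21.8 (21.9 ± 0.497). Slc12a5 exceeded Slc12a2 6.63-fold ± 0.217 and made up 86.9% ± 0.370 of both.

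**Figure D3:**
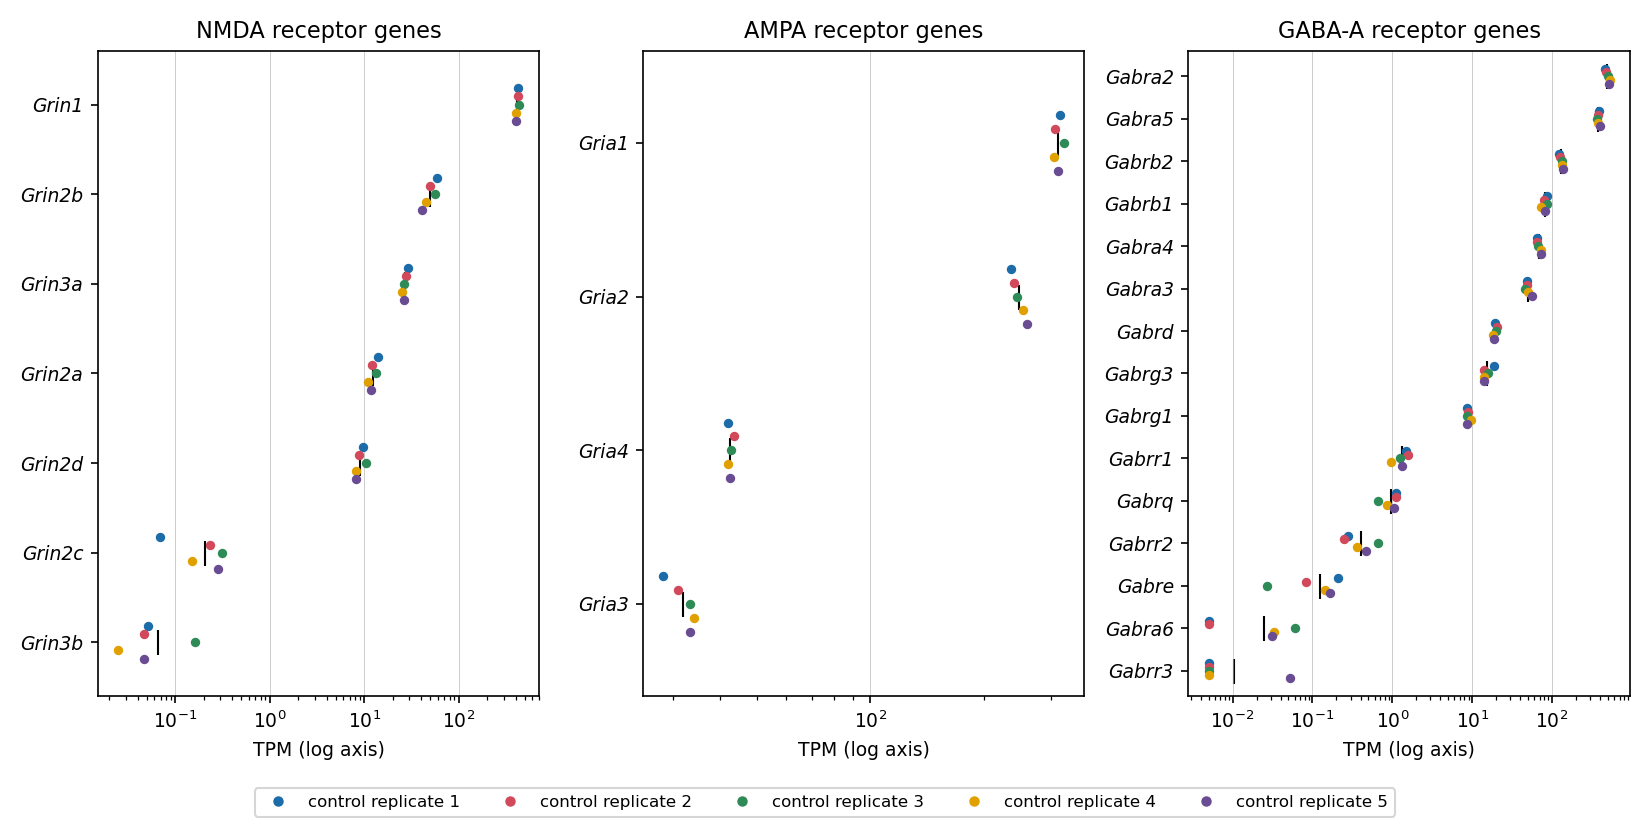
TPM on log axes in each of the 5 control libraries for NMDA, AMPA and GABA-A receptor genes that are reported here and have a mean of at least 0.01 TPM, ordered by mean (black bar); libraries at 0 are drawn at 0.005. Grin1 lies above every other NMDA receptor gene, Gria1 and Gria2 above Gria4 and Gria3, and Gabra2 and Gabra5 above the other alpha genes drawn.

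Among the brain alpha genes of sodium channels, which carry the action potential, Scn2a1 had the highest transcript level. This alpha subunit of immature axons (Nav1.2) had 179.7, 175, 179, 176 and 180.4 TPM (178 ± 2.47), a spread of 1.39% of its mean, and made up 66.1% ± 0.452 of the 4 brain alpha genes. Scn8a (Nav1.6), which takes over at mature initial segments, had 39.8 ± 1.63, the fetal channel gene Scn3a 30.8 ± 1.04 and Scn1a, important in parvalbumin interneurons, 20.5 ± 1.02. Among the beta subunits Scn3b had 145 ± 1.98 and Scn2b 43.3 ± 1.50. Channels of muscle and sensory neurons (Scn4a, Scn9a, Scn10a and Scn11a) were each under 0.2 TPM.

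Genes of the presynaptic calcium channel types had the highest TPM among the pore subunits. Cacna1a (P/Q-type) had 83.7, 78.6, 83.5, 73.8 and 78.1 TPM (79.5 ± 4.15) and Cacna1b (N-type) 80.4, 76.5, 81.1, 71.3 and 77.9 (77.4 ± 3.92). Cacna1a was the higher in 5 of 5 libraries by 1.03-fold ± 0.0147, but in 0 of 5 per coding length, with a ratio of 0.819, so no order is given. The R-type gene Cacna1e had 45.7 ± 2.87, the L-type genes Cacna1c and Cacna1d 30.2 ± 1.87 and 13.2 ± 0.267, and the T-type gene Cacna1h 43.2 ± 1.95, which was 66.4% ± 0.426 of the 3 low-voltage genes. The auxiliary subunits Cacna2d1 (149 ± 6.76), the target of gabapentin, and Cacnb3 (137 ± 4.19) had overlapping ranges. Within libraries, Cacna2d1 was the higher in 5 of 5 on the TPM scale. The skeletal muscle and retinal genes Cacna1s and Cacna1f were under 1 TPM.

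Potassium channel transcripts were spread over many genes. Of 28 voltage-gated and calcium-activated members 27 were at 1 TPM or more. Kcna1, a low-threshold axonal channel, had 106, 101, 99.5, 97.6 and 103 TPM (102 ± 3.43) and Kcnd2, the A-type channel of dendrites, 89.9 ± 1.47. The Kcnc1 and Kcnc2 channels of fast-spiking cells had 27.4 ± 1.33 and 17.0 ± 0.951. Kcnj4, an inward rectifier, led the second potassium channel list with 188 ± 10.7, ahead of the leak channel Kcnk9 (101 ± 10.7) and the G-protein-gated subunit Kcnj3 (82.4 ± 3.89). Kcnj10, the astrocyte channel Kir4.1, had 5.07, 6.55, 9.24, 6.44 and 7.34 TPM (6.93 ± 1.53). Its highest library was replicate 3, as for 9 of 11 astrocyte and 7 of 12 pan-neuronal markers. Among pacemaker channels Hcn2 had 119.5 ± 4.88, Hcn3 67.2 ± 3.24 and Hcn4 25.4 ± 2.34. Hcn2 exceeded Hcn3 1.78-fold ± 0.0258, or 1.57-fold ± 0.0229 per coding length.

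**Figure D4:**
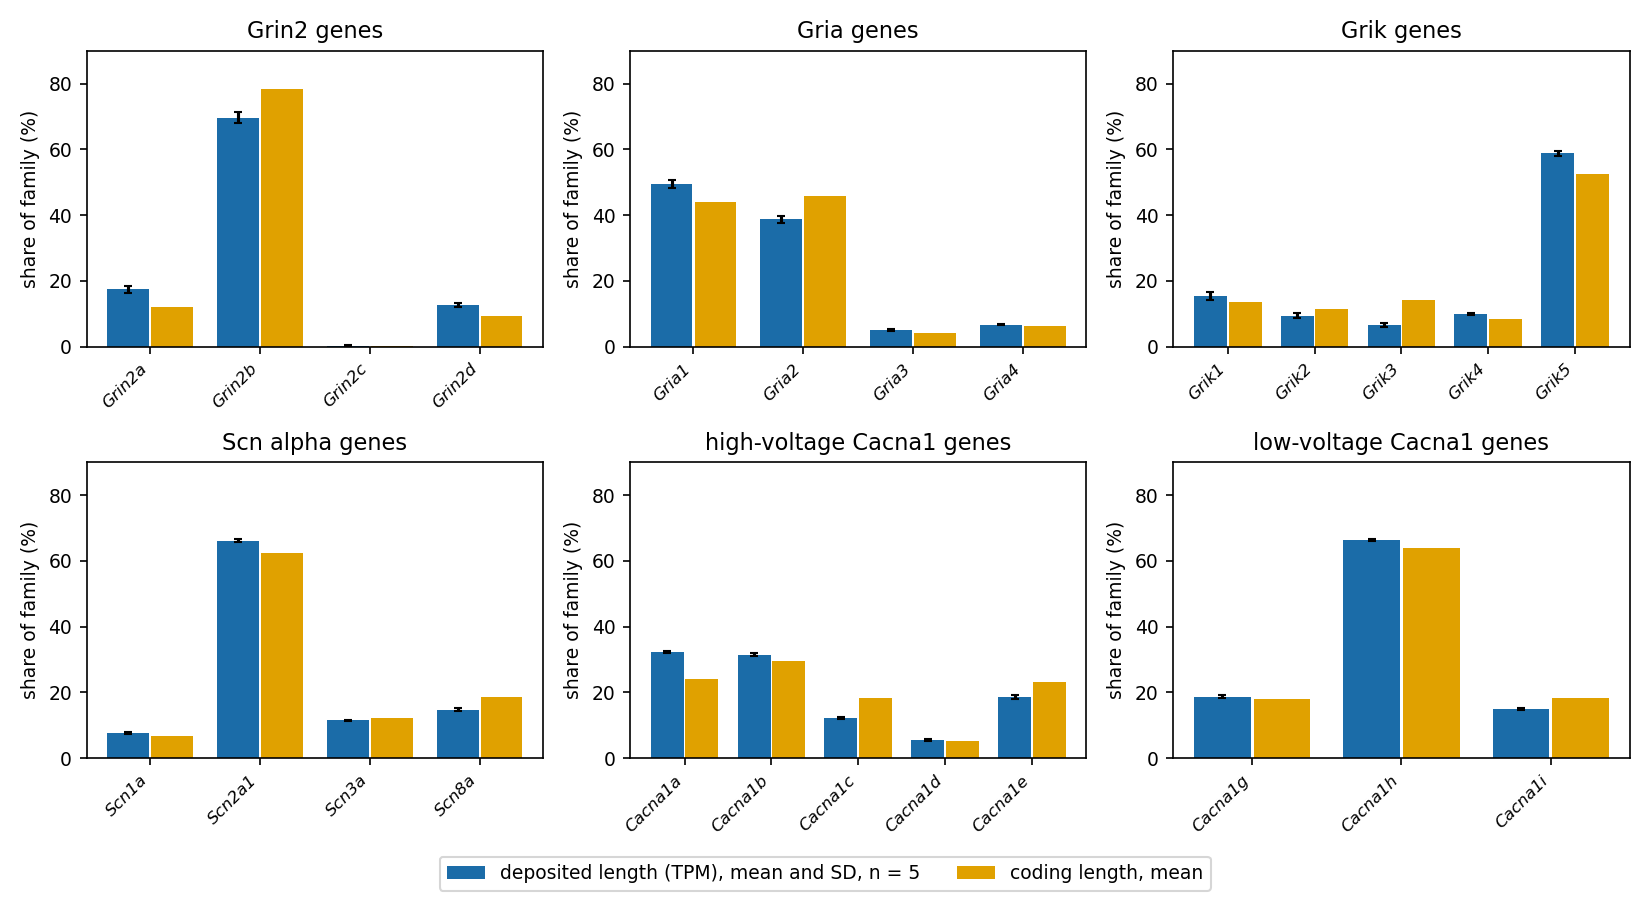
Share of each gene in the summed level of 6 families, in percent, for the control libraries; blue bars are TPM with the SD over 5 libraries, and yellow bars are means that use the coding length in place of the deposited gene length. Grin2b, Scn2a1, Cacna1h and Grik5 lead their families on both scales, while Gria1 and Gria2, and Cacna1a and Cacna1b, change places.

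The synaptic machinery was strongly transcribed. All 19 scaffold and release genes exceeded 50 TPM and 16 exceeded 100. Vamp2, the vesicle SNARE, had 1804 ± 32.0 TPM, the vesicle protein synaptophysin (Syp) 1410.01 ± 18.0 and the calcium sensor Syt1 557 ± 15.3. On the postsynaptic side Dlg4 (PSD-95) had 539, 534, 565, 539 and 541 (543 ± 12.1), Shank3 107 ± 4.99 and Homer1 50.1 ± 1.39. Neurogranin (Nrgn), a calmodulin-binding protein of maturing excitatory neurons, varied more, with 215, 245, 325, 337 and 323 TPM, and replicates 1 and 2 lay below the other 3. For uptake, the astrocytic GABA transporter Slc6a11 had 122 ± 8.39 and the neuronal glutamate transporter Slc1a1 154 ± 3.305. Monoamine and acetylcholine vesicle transporters (Slc18a2 and Slc18a3) were under 1 TPM.

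The zinc system is of interest because the series manipulates zinc in other cultures. Slc30a3, the ZnT3 transporter that loads zinc into glutamatergic vesicles, had 6.77, 5.68, 7.82, 7.54 and 8.30 TPM (7.22 ± 1.02), 65.0-fold ± 6.58 below Slc17a7. Slc30a9 led the SLC30 family with 148 ± 1.74, followed by Slc30a4 (49.6 ± 1.37) and Slc30a5 (44.3 ± 1.47), and the plasma membrane exporter Slc30a1 had 25.2, 24.6, 24.0, 25.6 and 24.8 (24.8 ± 0.627). Slc30a8, the pancreatic islet member, and Slc30a2 were under 0.05 TPM. Among SLC39 importers the endoplasmic reticulum transporter Slc39a7 had 119 ± 4.55, Slc39a6 104 ± 2.84 and Slc39a10 63.7 ± 4.02, and Slc39a12, a transporter of astrocytes, 5.42 ± 0.897. Metallothioneins, small zinc-binding proteins, had 276, 293, 302, 292 and 274 TPM for Mt1 (288 ± 11.98), 146, 161, 161, 157 and 142 for Mt2 (153 ± 8.95) and 162, 149.8, 161, 165 and 180.2 for the brain form Mt3 (164 ± 10.9), and the levels of Mt2 and Mt3 overlapped. Per coding length Mt1 stood 1.08-fold ± 0.102 above Mt3 instead of 1.77-fold ± 0.167. Mtf1, the zinc-sensing transcription factor, had 18.0 ± 0.897.

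Early genes were not silent in the control cultures, which were lysed after the mock pulse and recovery. Whether that handling changed early gene levels was not tested, because every control culture received it. Of 24 rapid early genes 21 were at 1 TPM or more, and the median over all 24 was 25.2 ± 1.45 TPM. The 12944 genes at 1 TPM or more had a median of 28.0, and the 21 early genes at that level one of 26.5 ± 2.04. Nr4a3, an orphan nuclear receptor (chromosome 4, 48045305 to 48086446, plus strand), led with 206, 193, 185, 188 and 196 TPM (193 ± 8.08), beside the AP-1 subunits Fosl2 (185 ± 9.47) and Jund (179 ± 10.99). The ranges of Nr4a3 and Fosl2 overlapped, as did those of Fosl2 and Jund, and per coding length Nr4a3 was 0.496-fold of Fosl2. The founding AP-1 subunit Fos (chromosome 12, 85473901 to 85477270, plus strand) had 58.1, 47.4, 44.4, 45.1 and 56.2 TPM (50.3 ± 6.47), with replicates 1 and 5 above the other 3. Jun had 85.5 ± 3.65, the zinc-finger factor Egr1 31.0, 28.5, 34.3, 34.8 and 40.8 (33.9 ± 4.64) and the neuronal factor Npas4 29.3, 25.0, 25.2, 23.4 and 29.9 (26.5 ± 2.88). Nr4a1 had 29.7, 28.4, 22.1, 22.0 and 25.1 (25.5 ± 3.55), so Nr4a3 exceeded its paralog 7.69-fold ± 0.7998, or 15.9-fold ± 1.66 per coding length.

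Other early genes ranged from the middle of the list down to its floor. Arc, which encodes a synaptic capsid-like protein (chromosome 15, 74669081 to 74672570, minus strand), had 3.38, 2.89, 4.04, 3.32 and 4.05 TPM (3.54 ± 0.501), and Fos exceeded it 14.4-fold ± 2.47. Fosb, whose stable splice form accumulates with repeated activity, had 6.81, 5.68, 6.91, 5.87 and 6.73 (6.40 ± 0.579). The stress-induced factor Atf3 had 18.9, 15.3, 12.2, 11.7 and 9.14 (13.4 ± 3.76), the largest relative spread among the early genes with a mean of at least 5 TPM, and replicate 1 was its highest library and replicate 5 its lowest. Klf4 (0.705 ± 0.131), Fosl1 (0.387 ± 0.265) and Zfp36 (0.215 ± 0.0908) stayed under 1 TPM, on 136, 42 and 24 counts, and exons of Fosl1 overlap those of Ccdc85b. The 9 genes Egr1, Junb, Ier5, Egr3, Dusp1, Npas4, Ier2, Nr4a1 and Nr4a2 ranged from 33.9 down to 25.4 TPM. Ranges overlapped from each gene to the next, so the order of neighbours is not resolved.

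Of the 19 rapid early genes with a RefSeq promoter in the table, 3 held the full element TGACGTCA within 250 bases before the start (Dusp1, Btg2 and Maff), and 14 held TGACG on either strand. Of the 17224 genes with a RefSeq promoter and a TPM value, 2.28% and 23.1% held them in the same window. Among the 9720 of these genes that were at 1 TPM or more the full element was in 3.24%, and the share with TGACG was not computed. Of the 7 interneuron markers with a promoter, Cck, Nos1, Sst and Vip also held TGACG. The promoters of Dusp1, which encodes a phosphatase of MAP kinases, and Btg2, an antiproliferative gene, are printed to set beside that of Sst, with the element in capitals, 5′ to 3′ (GRCm38.p6, chr17:26508473-26508722 minus strand for Dusp1, chr1:134079156-134079405 minus strand for Btg2):
Dusp1: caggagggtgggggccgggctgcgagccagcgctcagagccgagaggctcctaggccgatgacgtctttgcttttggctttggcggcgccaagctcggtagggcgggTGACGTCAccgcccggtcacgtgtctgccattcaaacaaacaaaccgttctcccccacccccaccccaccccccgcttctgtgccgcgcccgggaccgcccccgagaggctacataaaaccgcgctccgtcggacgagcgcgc
Btg2: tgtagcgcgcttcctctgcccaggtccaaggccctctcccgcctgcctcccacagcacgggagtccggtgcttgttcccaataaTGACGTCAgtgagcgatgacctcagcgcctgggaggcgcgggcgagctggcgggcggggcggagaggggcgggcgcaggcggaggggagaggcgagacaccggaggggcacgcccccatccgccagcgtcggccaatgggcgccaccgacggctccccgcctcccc
The element lies at bases 143 to 136 before the Dusp1 start and 166 to 159 before the Btg2 start, farther out than in Sst, and at bases 29 to 22 before the Maff start, nearer than in Sst. Sst, Dusp1 and Btg2 differed in level, with Sst at 1079.8, Dusp1 at 27.4 ± 3.70 and Btg2 at 7.20 ± 0.355 TPM. The Fos, Npas4 and Nr4a3 promoters held the shorter motif only, in this window.

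**Figure D5:**
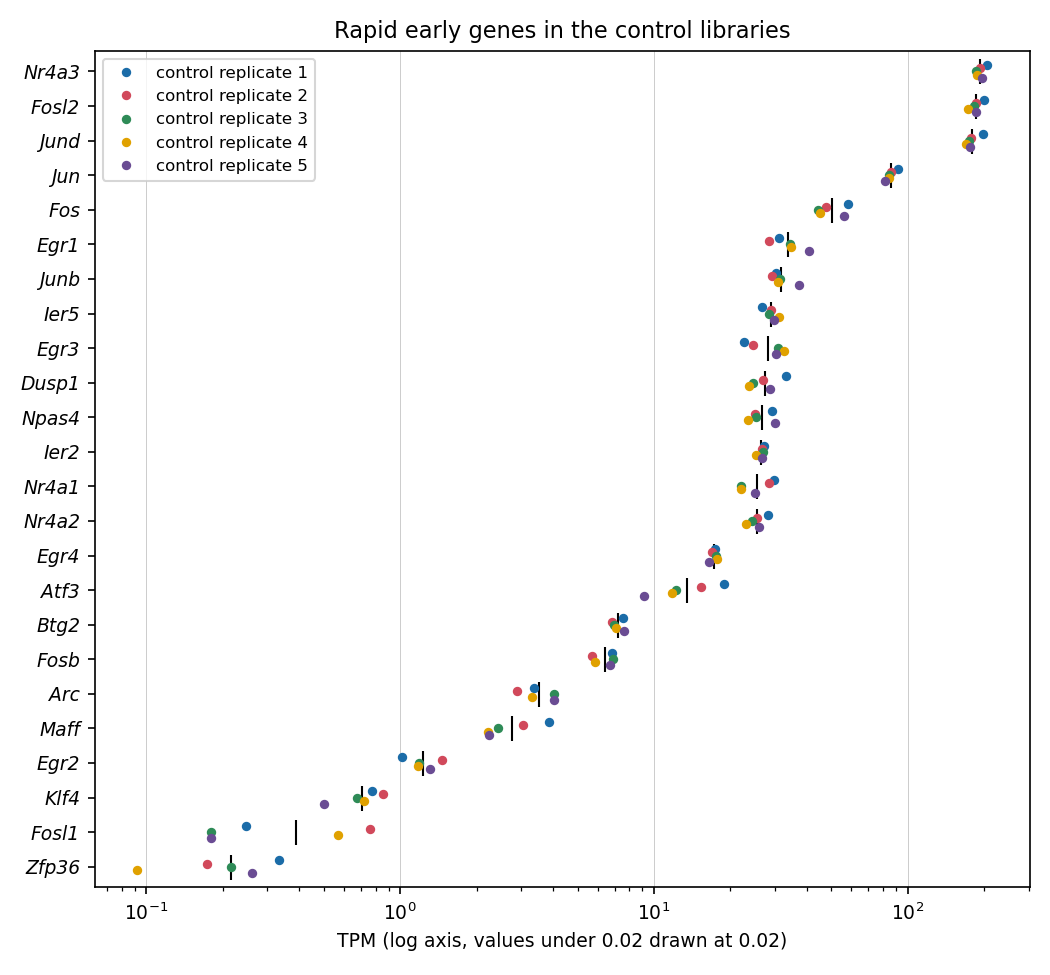
TPM on a log axis in each of the 5 control libraries for the 24 rapid early genes, ordered by mean (black bar). Nr4a3, Fosl2 and Jund lie near 180 to 190, a group of genes lies between about 25 and 34, and Klf4, Fosl1 and Zfp36 lie under 1.

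Delayed activity-regulated genes ranged from 11.1 to 671 TPM. The peptide precursors Scg2 and Vgf had 671 ± 30.5 and 458, 397, 324, 301 and 351 TPM (366 ± 62.4 for Vgf), and Vgf was highest in replicate 1. Bdnf, the activity-dependent neurotrophin gene (chromosome 2, 109674700 to 109727043, plus strand), had 66.7, 62.0, 54.4, 57.3 and 62.2 TPM (60.5 ± 4.78), Nptx2, a pentraxin that clusters AMPA receptors, 56.1 ± 5.37, and the prohormone convertase Pcsk1 52.8 ± 4.46. Nrn1 had 106 ± 3.17, Rgs2 83.9 ± 6.81, Inhba 17.4 ± 2.00 and Gadd45b 11.1 ± 1.45. All 14 members found were above 10 TPM, and 1 of the 15 listed symbols was not among the genes counted.

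The 5 cultures were alike in the level of most genes, although every pair of libraries differed beyond counting noise. Over the 10446 genes with a mean of at least 5 TPM and 100 counts the median coefficient of variation was 4.19%, where counting alone would give a median of 2.54%, and 93.6% of these genes were under 10%. The 10 most variable genes with at least 5 TPM were Snord72, Ttr, Mir7052, Snord14a, Mir345, Mir341, Snord12, Mir377, Mir7664 and Erdr1, and 8 of them are small nucleolar or microRNA genes with a mean of 3.8 to 6.8 counts, whose short length turns a few reads into several TPM. With a minimum of 100 counts, a limit added after seeing the values, Ttr was followed by Lars2, a mitochondrial leucyl-tRNA synthetase gene, at 364, 290.1, 242, 178 and 181 TPM (251 ± 78.3) and Col28a1, a collagen gene, at 9.62, 7.81, 5.18, 5.28 and 5.72 (6.72 ± 1.94), then Atf3. Replicate 1 was the highest library of both Lars2 and Col28a1, and Lypd1 ran the other way, with 21.3 TPM in replicate 1 and 41.1 in replicate 4. Replicate 1 was the highest library for 31.5% of the genes at 1 TPM or more, for 11 of 21 rapid and 8 of 14 delayed early genes, and for 0 of 12 pan-neuronal markers. It was also the highest for 13 of 27 voltage-gated and calcium-activated potassium channel genes and 4 of 10 interneuron subclass markers. For glutamatergic neuron markers the count was 2 of 8, and for scaffold and release genes 2 of 19, so neuronal lists differed among themselves. These values come from the same libraries and were set side by side after they were seen.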

How the data were processed

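RNA from the 5 control cultures was made into libraries with a stranded messenger RNA kit, per the labels' protocols. The authors used Trimmomatic 0.36, HISAT2 2.1.0, SAMtools 1.3.1 and featureCounts with mm10, per the submitters' processing notes. The strand setting of the counting and its treatment of reads with several matches are not given in the sources used here. Genes with overlapping exons are therefore uncertain. The deposited count per gene is a raw read count, and library totals lie between 36106575 and 39765787. The deposited TPM is that count divided by the deposited gene length and scaled to the same total in every library; TPM recomputed from both differed by at most 9.36e-08 in relative terms. A single gene length does not follow which transcript form is used, so comparisons between genes carry that error.

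Levels, medians, shares and ratios were computed per library with Python 3.11.15, pandas 2.3.3 and numpy 2.4.6, then given as mean ± SD (n = 5). The functions were checked on simulated data. No groups were compared and no test was run. Dates stood in place of 27 gene symbols in the TPM file, so names came from the count table. All 10 pairs of libraries differed beyond counting noise, with a chi-square per degree of freedom of 3.24 to 10.3. The genes named are the 20 with the highest mean TPM, the 10 with the highest coefficient of variation among those with at least 5 TPM, and members of 37 lists of cell type markers and gene families. The members and lists were chosen with earlier results of these data known. The tubulin group, the remark that replicate 3 or 1 was often highest, and Lars2, Col28a1 and Lypd1 were chosen after their values were seen. Alternatives were each replicate left out, the median, other thresholds, no length scaling and, added after seeing the data, the longest GENCODE vM21 coding length. The other 15 libraries and the authors' tables of comparisons were not used here, and some members of the lists are not reported here.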

Additional observations from a re-analysis of the deposited data

Results flagged for a closer look

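Among 327 results looked at (levels of genes with a mean of at least 1 TPM, and the summary values), 10 (3.06%), all gene levels, had 1 library far from the other 4 by Dixon's criterion for 5 values (a gap above 0.71 of the range). Chance alone flags about 1 gene in 20. Replicate 3 was the separate library for 6 of the 10 genes. In it Slc1a2, the glutamate transporter GLT-1, stood at 176 TPM against 160.2 to 163 in the others, and Ttr at 18.1 against 4.81 to 6.71. The scaffold genes Dlg4 and Shank2 stood at 565 TPM against 534 to 541 and 66.6 against 60.2 to 62.1. The actin gene Actg1 was at 2345 TPM against 2171 to 2218, and Tmsb4x was low at 4122 against 4402 to 4496. Replicate 5 was high for Junb, at 37.2 TPM against 29.1 to 31.3, and for Nr2f2, an interneuron and vascular transcription factor, at 10.2 against 8.81 to 9.15. Replicate 1 was high for Jund, at 198 TPM against 169 to 177. Replicate 4 was high for Gabrg1, at 9.63 TPM against 8.60 to 8.77.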

How the results depend on the processing

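No paired analysis was possible because no result comes from a test between groups. Leaving out each replicate, taking the median over libraries or recomputing TPM moved no summary value with an SD, and none of the 389 gene levels, by more than that SD. With 5 libraries a mean without 1 of them, or a median, cannot move that far, and the recomputed TPM was the same. This outcome was therefore fixed in advance and says nothing about robustness. The number of genes at 1 TPM or more has no SD and was judged by a 1.5-fold limit. The count of 12944 genes at 1 TPM or more lay between 12925 and 12948 without any one replicate. It was 13883 at 0.5 TPM, 11977 at 2 TPM and 12501 where every library had to reach 1 TPM. Without length scaling (counts over the library total), the top 20 genes held 5.24% instead of 6.44%, and the medians were 755 for pan-neuronal markers, 7.83 for astrocyte, 0.600 for oligodendrocyte lineage, 0.230 for microglia and 18.1 for rapid early genes. The shares became 79.4% for Grin2b, 45.3% for Gria2, 91.8% for Slc17a7, 85.9% for Slc12a5 and 64.5% for Gad1 with Gad2. Per GENCODE coding length, chosen after seeing the data, the top 20 share was 8.53%, the medians were 479, 7.17 and 0.227 for pan-neuronal, astrocyte and oligodendrocyte lineage markers and 19.3 for rapid early genes, and the shares were 78.5% for Grin2b, 45.9% for Gria2, 91.7% for Slc17a7 and 64.3% for Gad1 with Gad2. With members under 1 TPM left out, the median was 8.07 for astrocyte, 7.46 for oligodendrocyte lineage and 1.245 for microglia markers, since fewer genes entered. Of single genes, 320 of 389 moved by more than their SD without length scaling and 298 of 378 per coding length. Scaling by RefSeq protein lengths was not run. Genes under 1 TPM rest on few reads, and depth limits what can be said of them.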

Other observations

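Ribosomal protein genes, a group chosen after the values were seen, held 3.38% ± 0.0621 of all TPM over 84 genes, against 2.15% ± 0.0383 for the 19 tubulin genes. Genes under 1 TPM held 0.132% of all TPM.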
